A study of Mus musculus with 22 samples.

Results

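miR-21 is a short regulatory RNA that is abundant in many solid tumors, and it was followed here in fallopian tubes, tumors and plasma of mice that model high-grade serous ovarian cancer. It was counted by 1 probe of the 566 mouse miRNA probes on the NanoString panel, listed there as mmu-miR-21, and that probe was taken by its name over all 22 samples. Uninduced control fallopian tubes (CT, n = 5) and doxycycline-induced fallopian tubes (FT, n = 5) were compared with metastatic tumors (M, n = 5), of which M1 to M4 are labelled peritoneal metastases and M6 an ovarian tumor. Plasma came from control mice (CS, n = 3) and from doxycycline-induced mice (TS, n = 4), and the labels give the source of the TS samples once as plasma and once as serum. All mice carried conditional alleles of Brca1 or Brca2, beside further conditional alleles that are not reported here, with a Cre recombinase that doxycycline switches on in Pax8-expressing cells, which include the secretory epithelium of the tube. In control mice these alleles were left floxed (Brca fl/fl or fl/+). In induced mice and tumors they were recombined, with Brca1 or Brca2 at -/- or -/+. Genotypes and the mice that gave both tube and plasma are listed in the study's sample table and not in the GEO labels, so results by genotype are described without a test. Strain and age are not given in the sources used here. The RNA came from whole tissue, so fewer cells of a type and less RNA per cell cannot be told apart. The 5 probes for epithelial miRNAs of the miR-200 family were all above the mean plus 2 SD of the negative controls in every CT and FT sample and in M2, M4 and M6, but in M1 and M3 1 of 5 was. Of the 6 probes for miRNAs of ciliated cells, 0 were above it in any tumor, and 0 in FT2 and FT4.

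As background, a miRNA pairs through its seed, the bases 2 to 8 from the 5′ end, with sites in messenger RNAs and lowers the output of those messages. The best known targets of miR-21 include Pdcd4, which restrains tumor growth, and its own transcription is driven by AP-1 and STAT3 downstream of growth and inflammatory signals. It is made by tumor cells and also by fibroblasts and leukocytes, and it circulates in plasma.

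The sequences are shown because the seed decides which messages are bound and because related miRNAs differ from miR-21 at few bases. They were taken from RefSeq on build GRCm38.p6, and capitals mark the seed.
miR-21a-5p, the strand the panel names miR-21: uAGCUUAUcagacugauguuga
miR-21a-3p, the star strand from the same hairpin: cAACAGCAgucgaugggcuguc
miR-21b: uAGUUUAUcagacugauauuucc
miR-21c: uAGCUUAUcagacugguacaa
miR-21a-5p lies at chr11:86584120-86584141 and miR-21a-3p at chr11:86584082-86584103, both on the minus strand. Their hairpin gene Mir21a (chr11:86584067-86584158, 92 bases) lies inside Vmp1 (chr11:86583858-86683836, minus strand), a gene of autophagy, 209 bases from the end of Vmp1 with the lower coordinate, which is its 3′ end. Whether that stretch is exonic was not analysed here. miR-21b (chr3:29636768-29636790, plus strand) differs from miR-21a-5p within the seed by C4U, counted from the 5′ end. miR-21c (chr8:128278188-128278208, minus strand) has the same seed and shares its first 15 bases with miR-21a-5p. Among the 1738 mature mouse miRNAs in the table used, 2 had the seed AGCUUAU, namely miR-21a-5p and miR-21c. The table is not complete, and miR-590-5p was not matched in it. Whether the miR-21 probe also counts miR-21b or miR-21c was not tested, and these miRNAs and the star strand were not analysed here.

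miR-21 was well above background in tissue and in most plasma samples. The deposited counts of the miR-21 probe ran from 497 to 2355 in CT, from 1211 to 8070 in FT and from 1552 to 16196 in M. In plasma they were 153 in CS2, 49 in CS3 and 1994 in CS4, and 476 to 3334 in TS. The lowest of the 22 counts, in CS3, was 1.96 times the mean plus 2 SD of that sample's negative controls, so CS3 carried the least precise value. The depth of a sample, as its sum of miRNA counts, was 70164 to 598321 for tissue and 18350 to 269005 for plasma. miR-590-5p, the other panel miRNA known to carry this seed, gave 3 to 43 counts and exceeded the mean plus 2 SD of the negative controls in 0 of 22 samples.

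After scaling, the level of miR-21 was lowest in CT, higher in most FT and highest in M. Levels are normalized counts, for which each sample was scaled by the geometric mean of its strongest miRNA signals (the top 100 in tissue, the top 30 in plasma), so tissue and plasma levels are on separate scales. In CT the normalized counts were 2573 in CT1, 1182 in CT2, 1490 in CT3, 1031 in CT4 and 1164 in CT5. In FT they were 2817 in FT1, 2868 in FT2, 2913 in FT3, 4288 in FT4 and 1391 in FT5. CT1 stood above the other 4 control tubes and FT5 lay within the control range, while the other 4 FT were above CT1. In M they were 4473 in M1, 12694 in M2, 4731 in M3, 3751 in M4 and 11052 in M6. All 5 tumors were above all 5 control tubes, and M4 was the only tumor below the highest FT. The means were 1488 ± 629.6 in CT, 2855 ± 1025 in FT and 7340 ± 4194 in M (SD, n = 5 each).

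**Figure D1:**
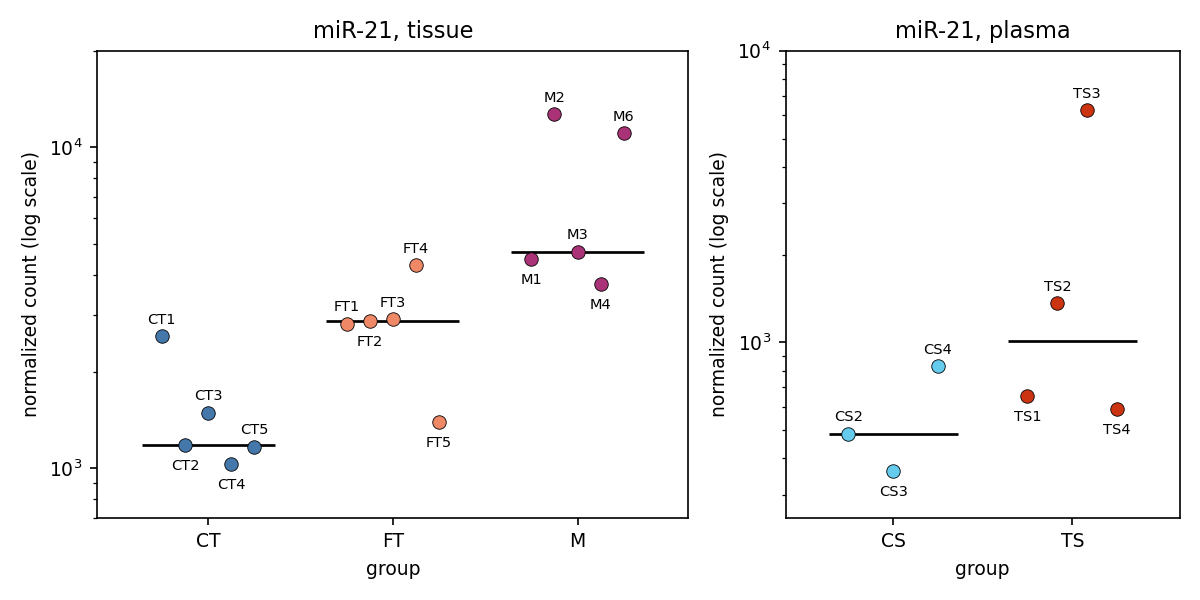
Normalized counts of miR-21 in each sample on log axes, tissue on the left and plasma on the right, with 1 point per sample and a bar at each group's median. All M samples (3751 to 12694) lie above all CT samples (1031 to 2573), and TS3 (6260) lies far above the other plasma samples (362 to 1359).

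In plasma miR-21 was 486 in CS2, 362 in CS3 and 827 in CS4, and 656 in TS1, 1359 in TS2, 6260 in TS3 and 591 in TS4. TS3 and TS2 exceeded every control plasma sample, whereas TS1 and TS4 lay between CS2 and CS4. The means were 558.2 ± 240.7 in CS (SD, n = 3) and 2216 ± 2718 in TS (SD, n = 4), and the TS mean rested on TS3.

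miR-21 also moved up the order of miRNAs within a sample. Ranked by deposited counts among the 566 miRNAs, it took place 19 in CT1 and places 31 to 35 in CT2 to CT5, and places 12 to 28 in FT. In M it took place 15 in M1, 5 in M2, 13 in M3, 17 in M4 and 3 in M6. All tumors thus ranked it higher than any control tube did, whereas FT overlapped with CT through CT1. In plasma its place was 22, 32 and 14 in CS2 to CS4 and 16, 11, 5 and 18 in TS1 to TS4. Probes differ in ligation and capture, so a place compares samples rather than amounts of different miRNAs.

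As a share of all miRNA counts, miR-21 separated tumors from control tubes less cleanly. The share was 1.74% in CT1 (exact 95% binomial interval 1.67% to 1.81%) and 0.595% to 0.811% in the other CT, and 0.690% to 1.80% in FT. In M it was 1.62% in M1, 5.39% in M2, 2.45% in M3, 1.26% in M4 and 5.17% in M6. M1 and M4 were therefore below CT1 on this scale, while M2 and M6 kept the highest shares of all 22 samples. In plasma the share was 0.267% in CS3 (exact interval 0.198% to 0.353%), 0.418% in CS2 and 0.931% in CS4, and 0.431% to 0.728% in TS1, TS2 and TS4 against 3.53% in TS3. These intervals cover counting error only.

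**Figure D2:**
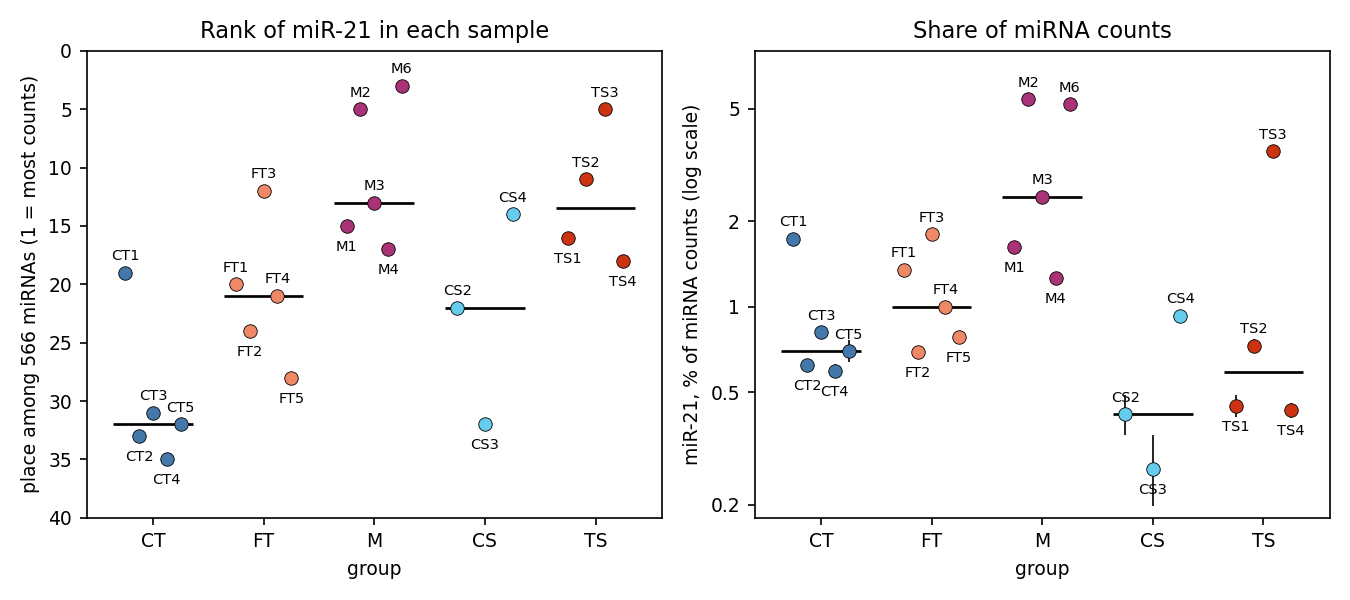
Left, the place of miR-21 among 566 miRNAs by count in each sample, with place 1 at the top, and right, its share of miRNA counts in percent on a log axis with exact 95% binomial intervals. Bars mark group medians. All M lie above all CT by place, but M1 (1.62%) and M4 (1.26%) fall below CT1 (1.74%) by share.

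The comparison of M with CT asked how tumors differ from the uninduced tube, and miR-21 rose in it. It was 4.93-fold higher in M (log2 fold change 2.30, SE 0.512, 95% interval 1.22 to 3.38, edgeR adjusted p = 0.00472), and all 5 tumors lay above all 5 controls. By this test 82 of 566 miRNAs were called (14.5%), 58 of them higher (10.2%), and groups did not overlap with M higher for 42 miRNAs (7.42%, and 12.5% in either direction). miR-21 took place 35 by fold among all miRNAs and place 26 among the 133 that averaged 50 counts or more, so many miRNAs changed by more. The exact permutation test on miR-21 alone gave p = 0.00794, the smallest that 252 splits allow, and 0.0317 after adjustment over the 4 comparisons. Without both M2 and M6 the log2 fold change was 1.54 (edgeR adjusted p = 0.0151). The call was lost when samples were scaled to the spiked positive hybridization controls (log2 fold change 2.24, edgeR adjusted p = 0.0860) or ligation controls (2.91, adjusted p = 0.0544). The number of tumors above the highest control tube was then 2 of 5 with hybridization controls and 4 of 5 with ligation controls. It was 3 of 5 with total miRNA counts as the scale and 2 of 5 without scaling.

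The comparison of FT with CT asked what had changed in the induced tube, and miR-21 did not pass the test across all miRNAs there. Its level was 1.92-fold that of CT (log2 fold change 0.94, SE 0.566, 95% interval -0.22 to 2.11, edgeR adjusted p = 0.759), with 4 of 5 FT above the highest control tube. That number was 3 when each sample was scaled to its own most abundant miRNAs or to miR-425, 2 with ligation controls and 1 with hybridization controls or total miRNA counts. All FT lay above all CT for 3 miRNAs (0.53%, and 0.53% in either direction), and miR-21 was not among them. Only 1 miRNA was called by edgeR in FT, a higher one (0.177%). At an unadjusted p under 0.05 there were 41 miRNAs, and miR-21 was not one of them. The exact permutation test on miR-21 alone, which was chosen with earlier results of these data known, gave p = 0.0238 and 0.0317 after adjustment over the 4 comparisons. FT5, at the control level, and CT1, at the induced level, set the overlap, and without both the log2 fold change was 1.40 (edgeR adjusted p = 0.568). Among FT, miR-21 varied less than most miRNAs, since its SD of 0.588 on the log2 scale compared with a median of 1.25 over the 142 miRNAs that averaged 50 counts or more, of which 17 had a smaller SD. In CT the reverse held (SD 0.525 against a median of 0.353, with 96 of 128 smaller), as it did in TS (1.57 against 1.10, with 73 of 98 smaller).

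Between M and FT the level of miR-21 was 2.57-fold higher in M (log2 fold change 1.36, SE 0.809, 95% interval -0.29 to 3.01, edgeR adjusted p = 0.769), which did not pass the test, and 9 of 566 miRNAs were called (1.59%), 5 of them higher (0.883%). Of the tumors, 4 of 5 were above the highest FT, where 6 miRNAs had no overlap with M higher (1.06%, and 1.41% in either direction). The exact permutation test on miR-21 alone gave p = 0.0159, and 0.0317 after adjustment over the 4 comparisons. Without both M2 and M6 the log2 fold change was 0.60 (edgeR adjusted p = 0.895). The comparisons with CT share the same control tubes, and a pair of mice that the study does not name gave both FT and M samples, which these tests treat as independent. The study took its other metastatic tumors from an earlier publication and does not name them, so M mixes tumors of different sources. Whether any tumors of M shared a mouse is not stated.

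In plasma of induced mice the mean level of miR-21 was above that of control plasma, but the difference did not pass the test. edgeR gave 3.96-fold (log2 fold change 1.98, SE 0.832, 95% interval 0.35 to 3.61, adjusted p = 0.542), and 0 of 566 miRNAs were called (0.0%), with 42 at an unadjusted p under 0.05 and 12 called by DESeq2. The unadjusted p of miR-21 was 0.0171, and miR-21 took place 5 by fold. The degrees of freedom of this fit, residual and borrowed from other miRNAs, were together infinite, so its dispersion was one shared across miRNAs. The interval and this p therefore do not reflect the wider spread of miR-21 in TS (SD 1.57 on the log2 scale against a median of 1.10). Unadjusted p was 0.118 in limma with pseudocount 1, 0.0685 in limma with pseudocount 10 and 0.0419 in DESeq2. The groups of miR-21 overlapped, whereas all TS lay above all CS for 4 miRNAs (0.707%) and groups did not overlap in either direction for 5.3%. The ratio of geometric means was lower, at 2.56, and the exact permutation test gave p = 0.229, where 3 samples against 4 cannot go below 0.0571. Without TS3 the log2 fold change fell to 0.63, and without both TS3 and CS3 to 0.40. The summed level of 4 erythrocyte miRNAs was 24865 normalized counts in TS3 and 17081 to 44989 in CS, but miR-144, 1 of the 4, was at 52.6 in TS3 and at 1212 to 3614 in CS. The sum of 5 leukocyte miRNAs was 2326 in TS3 and 704.4 to 2409 in CS, but its members went both ways. In TS against CS, 3 of the 5 had a log2 fold change above 0. miR-223 was at 1361 in TS3 and at 100.3 to 251.2 in CS. The level of miR-155 ran from 0.510 to 114.5 in TS and from 0.415 to 7.39 in CS. It averaged 9.57 deposited counts over both groups, under the mean negative control of CS (16.9) and of TS (12.6), so its value above 0 is weakly based. miR-142-3p was at 65.7 to 158.4 in TS and at 228.0 to 425.5 in CS, and miR-142-5p reached 420.6 in TS against 1470 in CS. The part of blood cells in the TS3 level was not tested.

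The change of miR-21 in FT minus its change in plasma was -1.04 on the log2 scale (SE 1.02, 95% interval -3.11 to 1.02, edgeR adjusted p = 0.608), so a difference between the changes in tube and in plasma was not detectable, and 0 of 566 miRNAs were called (0.0%), with 59 at an unadjusted p under 0.05. Its sign turned without TS3 (0.31). The fit treated all samples as independent, although tube and plasma came from the same mouse in 7 cases. For the mice with both, the value was -0.77 without and -0.21 with the mouse as a block, in fits chosen after seeing the data.

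**Figure D3:**
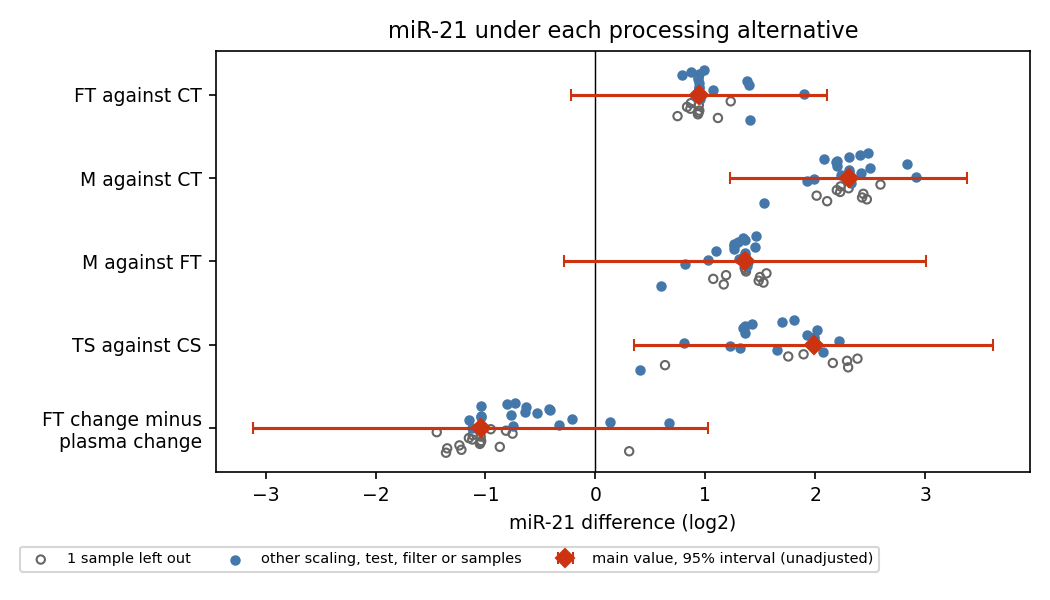
Difference of miR-21 on the log2 scale in each comparison. Diamonds with bars are the main edgeR values with unadjusted 95% intervals, open circles leave out 1 sample and filled circles use another scaling, test, filter or set of samples. M against CT stays between 1.54 and 2.91, whereas TS against CS ranges from 0.40 to 2.38.

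By genotype, the tumors fell into a high and a lower set. M2 and M6, at 12694 and 11052, were the only 2 Brca1 tumors (both Brca1 -/+), and the 3 Brca2 tumors M1, M3 and M4 lay at 3751 to 4731. M2 and M6 stayed the highest 2 of the 5 tumors with scaling to abundant miRNAs, total miRNA counts, miR-425 or positive controls and without scaling. Under TMM, median and quantile scaling the levels of single samples were not compared. The Brca1 -/- tube FT2, at 2868, was in the middle of the FT range (1391 to 4288), and its plasma TS1, at 656, was near the bottom of TS. Brca2 and heterozygous tubes overlapped with the rest as well, with FT2 and FT4 (Brca -/-) at 2868 and 4288 and FT1, FT3 and FT5 (Brca -/+) at 1391 to 2913. M6 is the ovarian tumor, so site and genotype overlap in it. The summed level of the 3 mesenchymal miRNAs miR-199a-3p, miR-199a-5p and miR-214 was 13654 in M2 and 6145 in M6, against 5017 in M3, 1185 in M1 and 403.6 in M4. It was thus highest in the same 2 tumors, but miR-199a-3p made up most of it, at 13036 in M2. In M against CT the log2 fold change was 1.14 for miR-199a-3p, -0.51 for miR-199a-5p and -0.21 for miR-214, and none was called. M2 and M6 also had more miRNA counts than the other tumors (253094 and 313180 against 70164 to 123139), a smaller share of counts on other probes (16.4% and 18.6% against 37.4% to 49.7%) and lower housekeeping sums (16335 and 25479 against 39056 to 141207). The part of these differences in the level of miR-21 was not tested.

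Tube and plasma came from the same mouse in 7 cases. In the 4 induced mice miR-21 had the same order in both: 4288 in FT4 and 6260 in its plasma TS3, 2913 in FT3 and 1359 in TS2, 2868 in FT2 and 656 in TS1, and 1391 in FT5 and 591 in TS4. FT3 and FT2 were nearly equal, so that order rests on FT4 at the top and FT5 at the bottom. Against the control means, the mouse of FT4 had 2.88 times the tube level and 11.2 times the plasma level. In the 3 control mice the order was not shared: CT3 was the highest tube (1490) and CS3 the lowest plasma (362), and CT4 was the lowest tube (1031) and CS4 the highest plasma (827). Of 86 miRNAs that averaged 50 counts or more in both, 4 (4.65%) had the same order over the 4 induced mice, and 18 (20.9%) were highest in the same mouse. TS3 was the highest TS sample for 39 of the 86 miRNAs, and FT4 and TS3 were both the highest for 6. The shared order was lost when samples were scaled to total miRNA counts, to miR-425 or to the positive controls.

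**Figure D4:**
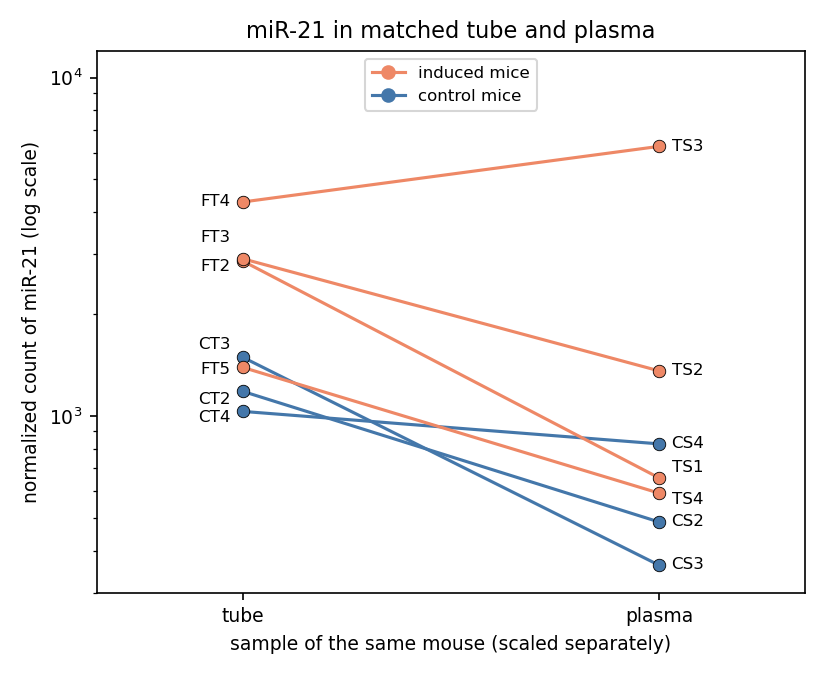
Normalized counts of miR-21 in tube and plasma of the same mouse on a log axis, with 1 line per mouse (4 induced, 3 control) and tube and plasma scaled separately. The lines of the induced mice keep their order from FT4 (4288) with TS3 (6260) down to FT5 (1391) with TS4 (591), and those of the control mice cross.

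Across the 15 tissue samples the miRNAs whose levels were most like that of miR-21 were miR-146a, a feedback inhibitor of NF-kB signaling (Pearson r = 0.735), miR-2141 (0.711), miR-210, which hypoxia induces (0.707), miR-196a of the Hox clusters (0.689) and miR-25 (0.678). The median r over the 140 miRNAs that averaged 50 counts or more was 0.07. These values describe samples from 3 groups that share their scaling, and within groups r was 0.159 for miR-146a, 0.088 for miR-2141, 0.124 for miR-210, 0.613 for miR-196a and -0.291 for miR-25. Of these 5, miR-196a kept most of its likeness within groups. At the other end were miR-204 (r = -0.896, within groups -0.608), miR-145 (-0.862, within groups -0.795) and miR-34b-3p (-0.852, within groups -0.518), whose mean levels were lower in M than in CT. Over the 7 plasma samples the most alike were miR-342-3p (r = 0.932), miR-146a (0.877), miR-30a (0.871), miR-30d (0.868) and miR-24 (0.853), against a median of 0.23 over 94 miRNAs. TS3 lay far above the other samples, and in the same order Spearman's rho was 0.571, 0.571, 0.679, 0.536 and 0.429. miR-146a, whose mean normalized count was 182.0 in CT, 494.7 in FT and 862.3 in M, was named in both tissue and plasma.

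The company of miR-21 in the order of group means changed from tube to tumor. In CT its mean stood at place 32, just below miR-204 (1574 ± 543.5) and the joint probe for miR-1937a and miR-1937b (1514 ± 698.0) and just above miR-200a (1294 ± 127.7) and let-7e (1210 ± 190.2, SD, n = 5). In FT it stood at place 24 between miR-29a (2986 ± 1617) and miR-143 (2611 ± 2494), with let-7e (3080 ± 2178) and miR-125a-5p (2325 ± 1645) next to them. In M it stood at place 10 between let-7g (8046 ± 1979) and miR-16 (7576 ± 3868) above it and let-7d (6002 ± 2463) and miR-199a-3p (4932 ± 5104) below it. In plasma it stood at place 21 in CS, between miR-126-3p (644.3 ± 48.6), miR-200b (602.0 ± 566.1), miR-29a (554.5 ± 185.1) and the joint probe for miR-20a and miR-20b (514.1 ± 170.4). In TS it stood at place 11, between let-7c (2561 ± 1015), miR-720 (2235 ± 4046), miR-486 (2213 ± 1940) and let-7d (1347 ± 1497). All these neighbours were within 1 SD of the miR-21 mean of the same group.

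Some other miRNAs with oncogenic roles were also higher in M. Of 18 further probes of a list of oncogenic miRNAs, 5 were higher in M than in CT, 0 were lower and 13 did not pass, against 10.2% higher among all miRNAs, and the median log2 fold change was 0.77 against 0.29. The largest changes were those of miR-210 (71.7 ± 15.6 to 931.0 ± 439.3 normalized counts, log2 fold change 3.69, adjusted p = 0.000107), miR-25 (2.86, adjusted p = 0.000496) and the joint probe for miR-20a and miR-20b (2.12, adjusted p = 0.00538). Also called were miR-93 and the joint probe for miR-106a and miR-17, whereas miR-18a, miR-19a, miR-19b, miR-92a and miR-106b were not. Of these, miR-18a and miR-92a averaged 11.9 and 5.7 deposited counts in CT and M. That is under the mean negative control of CT (18.1) and of M (13.55), so their lack of a call says little. Of the 18 probes 9 averaged 50 counts or more, against 133 of all 566 miRNAs. Apart from miR-210 the called probes are for related miRNAs, and whether they changed separately was not tested. In FT and TS 0 probes of this list were called, where 0.177% and 0.0% of all miRNAs were, so these zeros do not set the list apart.

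Of 5 probes for miRNAs of inflammatory signaling, 2 were higher in M than in CT and 0 lower, against 10.2% higher and 4.24% lower among all miRNAs, namely miR-223 of myeloid cells (log2 fold change 3.59, adjusted p = 0.00205) and miR-146a (2.24, adjusted p = 0.00270). Of 26 probes for tumor-suppressive miRNAs, 11 were lower, against 4.24% of all miRNAs, 1 was higher, and 14 did not pass. Of these 26, 23 averaged 50 counts or more in CT and M, as did 4 of the 5 inflammatory probes. Among all miRNAs 133 did, and a fit of these alone called 46 higher and 23 lower. The shares over all miRNAs are therefore a low background for these abundant probes. Of the 11 lower tumor-suppressive probes, 6 are also counted below among the ciliated, smooth muscle and epithelial miRNAs, so these counts are not separate changes. The 3 with the lowest fitted values were miR-34c (947.4 ± 1043 in CT, where its lowest sample was at 0.655, against a mean of 1.89 in M), miR-204 (1574 ± 543.5 to 19.5 ± 13.1) and miR-34b-5p (389.9 ± 207.2 to 17.2 ± 7.91), whose counts were below the mean plus 2 SD of the negative controls in all 5 tumors, so no fold is given for them and their order means nothing. The 1 higher was let-7i (2.63, adjusted p = 0.00119). Probe lists were chosen from general knowledge with earlier results of these data known, so the counts describe them and test nothing about them.

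**Figure D5:**
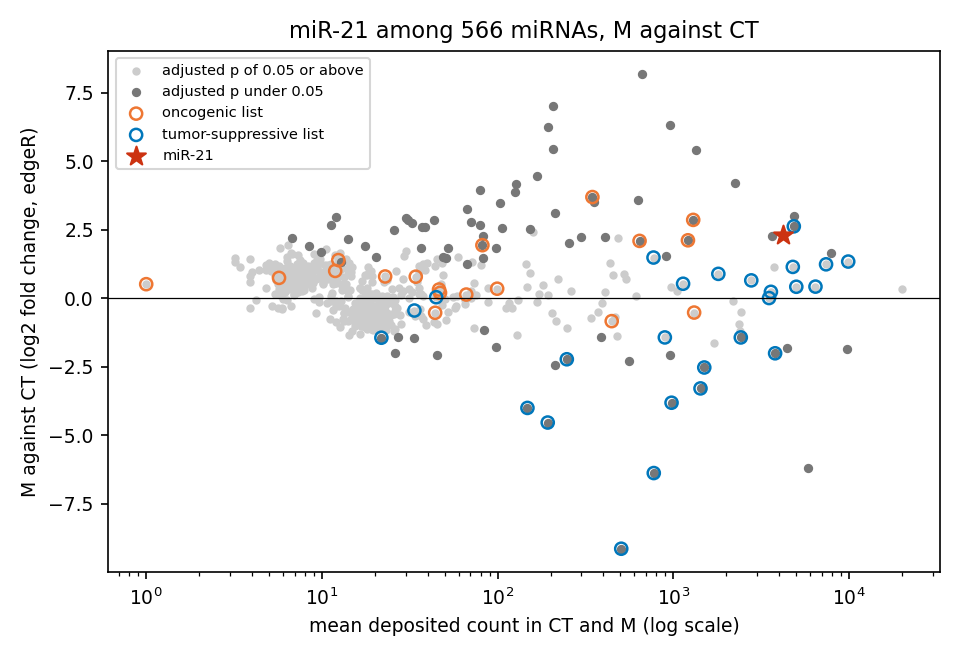
Log2 fold change of M against CT (edgeR) against the mean deposited count in both groups on a log axis, 1 point per miRNA, with dark points past an adjusted p of 0.05, circles for the oncogenic and the tumor-suppressive lists and a star for miR-21. miR-21 (2.30) lies among the abundant miRNAs, at place 35 by fold. Of all miRNAs 10.2% were called higher, of the oncogenic probes 5 of 18 and of the tumor-suppressive probes 1 of 26, and the lists were not tested against each other.

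Some markers of other cells also differed between CT and M, and their part in the change of miR-21 was not tested. The counts called below stand against 10.2% higher and 4.24% lower among all miRNAs, and lists of 2 to 6 probes say little against these shares. The summed normalized count of 5 leukocyte miRNAs was 593.0 to 1164 in CT, 785.3 to 1336 in FT and 966.7 to 6301 in M, with 1 of the 5 called higher in M. It was highest in M3 (6301), where miR-21 was 4731, and 2723 in M2 and 1870 in M6, so the 2 tumors highest in miR-21 were not the highest in leukocyte miRNAs. Smooth muscle miRNAs summed to 4713 to 13280 in CT and 626.5 to 3821 in M, with 3 of 5 called lower. Ciliated-cell miRNAs summed to 315.9 to 3773 in CT and 32.6 to 107.0 in M, with 4 of 6 called lower. The 2 endothelial miR-126 arms summed to 4224 to 6683 in CT and 7887 to 19897 in M, but the sum does not stand for both. The arm miR-126-3p was called higher, whereas miR-126-5p was not called and had no log2 fold change above 0. In M1 and M4 1 of the 2 arms was above the mean plus 2 SD of the negative controls. Erythrocyte miRNAs summed to 2881 to 4771 in CT and 2233 to 14358 in M, with 1 of 4 called higher, miR-486 (log2 fold change 3.27, edgeR adjusted p = 0.000254). Mesenchymal miRNAs ranged from 1907 to 3526 in CT and from 403.6 to 13654 in M, with 0 of 3 called. Epithelial miRNAs ranged from 9285 to 11038 in CT and from 242.5 to 42010 in M, with 1 of 5 called lower. The housekeeping messenger RNA probes summed to 2199 to 8485 in CT, 1247 to 130849 in FT and 16335 to 141207 in M, and FT spanned the range of CT. The part of these probes in the level of miR-21 was not tested.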

How the data were processed

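RNA of 15 tissue samples (100 ng) and 7 plasma samples (10 ng) was profiled by the authors on the nCounter mouse miRNA v1.5 panel, and the authors deposited whole barcode counts for 626 probes, of which 566 are mouse miRNAs. Whether controls were used to correct counts before deposit is not stated. The deposited count of miR-155 averaged 1.0 over CT and FT and also over CT and M. The negative controls averaged 18.1 in CT, 14.8 in FT and 13.55 in M. The reason for such low values was not tested. M5 and CS1, which the study left out, were not analysed here. Every sample column was assigned from its name, which left 0 out. As in the study's methods, counts were scaled to the geometric mean of the 100 (tissue) or 30 (plasma) most abundant miRNAs without background subtraction. Groups were compared on the counts by the quasi-likelihood test of edgeR 4.0.16 (R 4.3.3, all 566 miRNAs, Benjamini-Hochberg adjustment, threshold 0.05), and the mean log2 levels of miR-21 alone by exact permutation (two-sided) in scipy 1.17.1. Scripts were tested on simulated data. Values of r used log2(normalized count + 1) of miRNAs that averaged 50 counts or more. Alternatives used DESeq2 1.42.0 and limma 3.58.1.

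miR-21, the lists, the tests and the alternatives were chosen with earlier results of these data known. Named are miR-21, miR-590-5p, the 5 miRNAs most like miR-21 in tissue and in plasma, the 2 next above and below it in each group mean, and the 3 largest called changes of each list. Further members of some lists are named beside them. Samples of a group are separate samples in the labels, and of M and FT a pair of mice gave both. Leukocyte, mesenchymal, smooth muscle, epithelial, ciliated, endothelial and erythrocyte lists served as markers. Depth per sample is given with the levels, and plasma values with low counts, such as CS3, are the least precise. Some alleles of the mice and 1 list of miRNAs are not reported here.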

Additional observations from a re-analysis of the deposited data

Results flagged for a closer look

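CT1 stood apart from the other control tubes. Its miR-21 share of 1.74% lay far above the 0.595% to 0.811% of CT2 to CT5 (gap over range 0.811, against a critical value of 0.710), and so did its place of 19 against 31 to 35 (gap over range 0.750). TS3 stood apart from the other plasma samples of induced mice, with a normalized count of 6260 against 591 to 1359 (gap over range 0.865, critical value 0.829) and a share of 3.53% against 0.431% to 0.728% (gap over range 0.904). On the log2 scale neither sample was past the critical value, with 0.598 for CT and 0.647 for TS. Chance alone gives about 1 such value in 20, and 16 were computed.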

How the results depend on the processing

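miR-21 kept its direction and its side of the threshold under all 28 alternatives in FT against CT (log2 fold change 0.75 to 1.89) and in M against FT (0.60 to 1.56) and under all 24 in TS against CS (0.40 to 2.38). In M against CT it did so under 25 of 28. Its value was 2.24 with scaling to positive hybridization controls, 2.91 with positive ligation controls and 1.92 with the sample number as a replicate block (adjusted p = 0.0631), where the call was lost. Leaving out 1 sample gave 2.01 to 2.59 (adjusted p = 0.00146 to 0.0243). The change in FT minus that in plasma reversed with positive hybridization controls (0.14), with ligation controls (0.67) and without TS3 (leave-one-out range -1.44 to 0.31), and was -0.21 with the mouse as a block, which was chosen after seeing the data, as were the fits without both M2 and M6, both TS3 and CS3 or both FT5 and CT1. The causes were not tested. Another scaling moved the median of all miRNAs in M against CT from 0.29 to between -0.47 and 0.66, and miR-21 lay 1.84 to 2.71 above that median. The same ranges relative to the median were 0.76 to 1.36 in FT against CT and 0.84 to 2.90 in TS against CS.

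The count of called miRNAs depended on the processing far more. In FT against CT (1) it was 2 with TMM or median scaling, 9 with DESeq2, 6 with negative controls subtracted, 10 without both FT5 and CT1, and 0 with quantile, miR-425 or positive-control scaling, limma, the methods' t-test, a minimum mean count of 20 or 50 or the replicate block. Leaving out 1 sample gave 0 to 12, with 12 without FT3 and 10 without FT5. In M against CT (82) it was 151 with TMM, 198 with median scaling, 137 and 48 with positive hybridization and ligation controls, 184 with DESeq2, 32 with the methods' t-test, 133 with negative controls subtracted, 52 with all tissue groups fitted together and 174 without both M2 and M6, and 50 to 101 leaving out 1 sample. Of its calls 70.7% were higher. That share was 55.0% after TMM, 49.1% after quantile normalization, 82.3% after median scaling, 87.5% with miR-425, 51.6% with each sample's own most abundant miRNAs, 17.5% and 81.2% with positive hybridization and ligation controls and 55.4% with DESeq2. In M against FT (9, 55.6% higher) it was 5 with quantile normalization or limma with pseudocount 1, 2 with miR-425 or the replicate block, 4 with hybridization controls, 39 with DESeq2, 0 with the methods' t-test, 23 with all tissue groups together and 19 without both M2 and M6, and 4 to 33 leaving out 1 sample, with 33 without FT2. In TS against CS (0) it was 12 with DESeq2 and 90 with the replicate block, and 0 leaving out 1 sample. The deviations of same-numbered samples from their group means had r from -0.393 to 0.377. Tube and plasma of the same mouse had r from -0.156 to 0.176, so such values cannot settle whether the numbers pair samples. The labels do not pair them. The methods' t-test could not be fitted to the difference of changes. Background limits low miRNAs more than miR-21, but miR-21 in CS3 was 4.67 times the mean of that sample's negative controls. With negative controls subtracted, miR-21 in TS against CS was 2.22 instead of 1.98.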
